A study of Mus musculus with 15 samples.

Results

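The 9 genes described here mark neural progenitors and immature neurons: Nes, Sox2, Hes5, Eomes, Neurod1, Sox11, Dcx, Igfbpl1 and Tubb3. They were chosen by name, and each was read from its brightest probe set with 1 gene symbol, so they are 9 of the 19938 genes measured. Each had 1 such probe set. Right hippocampi of 15 male C57BL/6 pups were taken on postnatal day 9 and profiled on Affymetrix Mouse Gene 1.0 ST arrays, 1 array per sample. All pups came from litters limited to 7 per dam, with birth counted as day 1, and the 4 treated groups were exposed from day 5 to day 9. CC pups were untreated, MSS pups had mild stress and saline, MSM pups mild stress and morphine, SSS pups severe stress and saline, and SSM pups severe stress and morphine, with 3 pups in each group. No group had morphine without stress, and CC pups received neither stress nor an injection of saline as a treatment, so a difference from CC cannot be assigned to any single agent. The sources used here state neither the form of the stress nor the morphine dose, and they do not name litters. The p-values below therefore measure the spread between these samples, and pups of a group may share a litter.

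In the postnatal hippocampus, granule neurons of the dentate gyrus are still being produced. Radial glia-like stem cells, maintained by Notch signalling, give rise to intermediate progenitors, which commit to the glutamatergic fate and mature through a migrating neuroblast stage. Nes encodes nestin, an intermediate filament protein of stem and progenitor cells, Sox2 a transcription factor that maintains them, and Hes5 a repressor that Notch signalling switches on. Eomes (Tbr2) is a transcription factor of intermediate progenitors, and Neurod1 a basic helix-loop-helix factor that drives them to become neurons. Sox11 is a transcription factor of committed and immature neurons, Dcx encodes doublecortin, a microtubule-binding protein of migrating neuroblasts, and Tubb3 encodes the neuronal class III beta-tubulin. Igfbpl1 encodes a secreted protein of the IGF-binding protein family that is found in newborn neurons.

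None of the 9 genes passed the threshold in any comparison of the treatment groups. Values are log2 intensities, on which a difference of 1 is a change by a factor of 2, and a gene passed at an adjusted p under 0.05 by limma with Benjamini-Hochberg adjustment over all 19938 genes. In the averaged comparison of severe with mild stress, 0 of 9 members passed, beside 0.0100% of all genes (2 of 19938). In each of the other 11 comparisons and in the F-test over the 5 groups, 0 of 9 members passed, and 0% of all genes did. In the F-test the adjusted p of the members ran from 0.620 for Nes to 0.930 for Neurod1. At an unadjusted p under 0.05, 1 of 9 members differed over the 5 groups in the F-test, which was Nes, beside 7.24% of all genes. No member had an unadjusted p under 0.05 when MSS (2.22% of all genes), SSS (2.03%) or the average of the 4 treated groups (1.86%) was set against CC, nor between MSM and MSS (2.57%) or SSM and SSS (9.37%). Differences short of the threshold are therefore described by their values, their intervals and their order.

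A pair of arrays stood apart, and they carry much of what varied. MSM replicate 3, written MSM 3 below, was the lowest of the 15 arrays for 6 of the 9 members and the highest for another 2, against 16.1% and 7.63% of all genes. In MSM 3 the thalamus marker list had a mean log2 level of 8.39, against 6.94 to 7.39 in the other arrays, with 8 of its 10 genes highest there. The hippocampus list was at 7.17 in MSM 3, against 7.48 to 8.08 elsewhere, with 7 of its 11 genes lowest there. In SSM 1 the striatum list was at 9.20, against 6.63 to 8.17 elsewhere, with 7 of 8 measured genes highest there, and the hippocampus list was at 7.48. CC 1 had the second highest striatum level, 8.17, and MSM 2 the next, 7.69. Both of these arrays remain when MSM 3 and SSM 1 are left out. The hippocampus list shares Prox1 and Neurod6, and the thalamus list Calb2, with the immature neuron list used below. The part of these marker levels in the members' values was not tested, and many of the results below are given with and without these arrays. SSM 3 had the highest array median, 5.60 against 5.41 to 5.51, and was the highest array for 48.8% of all genes and for 3 of the 9 members. All 9 members lay above 4.76 in every array, the 95th percentile of the 1027 olfactory receptor genes taken as a floor of unexpressed genes. In whole tissue, fewer cells of a type and less RNA per cell cannot be told apart.

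Nes, the stem and progenitor filament gene, had log2 levels of 6.36, 6.34 and 6.30 in CC, 6.37, 6.09 and 6.07 in MSS, 6.21, 5.94 and 5.83 in MSM, 6.30, 6.17 and 6.33 in SSS, and 6.24, 6.37 and 6.36 in SSM. The 3 MSM arrays lay below all 3 CC arrays and below all 3 SSM arrays, while MSS had 1 array at the top of the whole series and the others near the MSM values. The group means were 6.33 ± 0.034 in CC, 6.32 ± 0.072 in SSM, 6.26 ± 0.087 in SSS, 6.18 ± 0.17 in MSS and 5.99 ± 0.20 in MSM (SD, n = 3), in that falling order. None of the 4 neighbouring pairs in this order differed past the threshold.

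Sox2, the stem cell factor, read 8.66, 8.50 and 8.46 in CC, 8.35, 8.62 and 8.72 in MSS, 8.61, 8.54 and 9.19 in MSM, 8.33, 8.53 and 8.44 in SSS, and 8.89, 8.48 and 8.60 in SSM. MSM 3 was 0.30 above the next array, SSM 1, and the other 2 MSM arrays lay just above the SSS arrays. Among the 13 arrays other than MSM 3 and SSM 1, the groups overlapped otherwise. Sox2 is also expressed by astrocytes and oligodendrocyte precursors, and in MSM 3 the mean level of the astrocyte list was 9.47, against 9.18 to 9.37 in the other arrays, and that of the precursor list 7.83, against 7.23 to 7.62. Their part in the Sox2 values was not tested. The MSM mean of 8.78 ± 0.36 and the SSM mean of 8.66 ± 0.21 were the highest, and the SSS mean of 8.43 ± 0.098 the lowest (SD, n = 3).

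Hes5, the Notch-induced repressor, was 8.38, 8.14 and 8.14 in CC, 8.17, 8.33 and 8.21 in MSS, 8.20, 8.20 and 8.45 in MSM, 8.19, 8.38 and 8.14 in SSS, and 8.09, 8.14 and 8.20 in SSM. Its group means ran from 8.14 ± 0.058 in SSM to 8.29 ± 0.14 in MSM (SD, n = 3), and every group overlapped every other.

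Eomes, the intermediate progenitor factor, read 5.83, 6.16 and 5.88 in CC, 5.59, 5.87 and 5.94 in MSS, 5.96, 5.87 and 5.21 in MSM, 5.85, 6.02 and 5.77 in SSS, and 5.73, 5.87 and 6.08 in SSM. MSM 3 lay 0.39 below the next lowest array, and without it the 5 groups overlapped. Means ran from 5.68 ± 0.41 in MSM to 5.96 ± 0.18 in CC (SD, n = 3).

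Neurod1, the neuronal commitment factor, had one of the widest spreads among the members. It read 7.98, 8.55 and 8.12 in CC, 8.47, 8.23 and 8.48 in MSS, 8.60, 8.36 and 7.10 in MSM, 8.29, 8.70 and 8.41 in SSS, and 7.57, 8.46 and 8.77 in SSM. Its lowest arrays were MSM 3 and SSM 1, and the range over 15 arrays was 1.67, a 3.18-fold span that exceeded the range of 99.2% of all genes. The group means differed by at most 0.44, from 8.02 ± 0.80 in MSM to 8.47 ± 0.21 in SSS (SD, n = 3), which is less than the SD within MSM.

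Igfbpl1, the newborn neuron gene, read 7.90, 8.18 and 7.88 in CC, 7.92, 8.12 and 8.24 in MSS, 8.31, 8.06 and 6.72 in MSM, 8.04, 8.29 and 7.99 in SSS, and 7.72, 8.25 and 8.46 in SSM. MSM 3 was 1.00 below the next lowest array, a gap wider than for any other member, and the range of 1.74, or 3.34-fold, exceeded that of 99.3% of all genes. Means ran from 7.70 ± 0.86 in MSM to 8.14 ± 0.38 in SSM (SD, n = 3).

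Sox11, a factor of committed and immature neurons, was 9.34, 9.47 and 9.21 in CC, 9.38, 9.48 and 9.51 in MSS, 9.44, 9.32 and 9.02 in MSM, 9.42, 9.51 and 9.30 in SSS, and 9.20, 9.37 and 9.51 in SSM. MSM 3 was again the lowest array, by 0.18, and the means ran from 9.26 ± 0.22 in MSM to 9.46 ± 0.066 in MSS (SD, n = 3).

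Dcx, the neuroblast gene, read 10.04, 10.27 and 10.20 in CC, 10.24, 10.16 and 10.24 in MSS, 10.20, 10.14 and 9.73 in MSM, 10.33, 10.29 and 10.18 in SSS, and 9.76, 10.26 and 10.26 in SSM. MSM 3 and SSM 1 were the lowest arrays and lay within 0.030 of each other, below the other 13. Means ran from 10.02 ± 0.26 in MSM to 10.27 ± 0.076 in SSS (SD, n = 3).

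Tubb3, the neuronal tubulin, varied least. It read 11.75, 11.76 and 11.76 in CC, 11.73, 11.61 and 11.68 in MSS, 11.80, 11.70 and 11.78 in MSM, 11.83, 11.81 and 11.79 in SSS, and 11.69, 11.87 and 11.86 in SSM. All MSS arrays lay below all CC arrays, and all SSS arrays above them, while both morphine groups spanned the CC values. The range over the 15 arrays was 0.26, or 1.19-fold, and 11.8% of all genes had a smaller one. Means rose from 11.67 ± 0.060 in MSS through 11.76 ± 0.0067 in CC and 11.76 ± 0.054 in MSM to 11.81 ± 0.096 in SSM and 11.81 ± 0.022 in SSS (SD, n = 3).

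**Figure D1:**
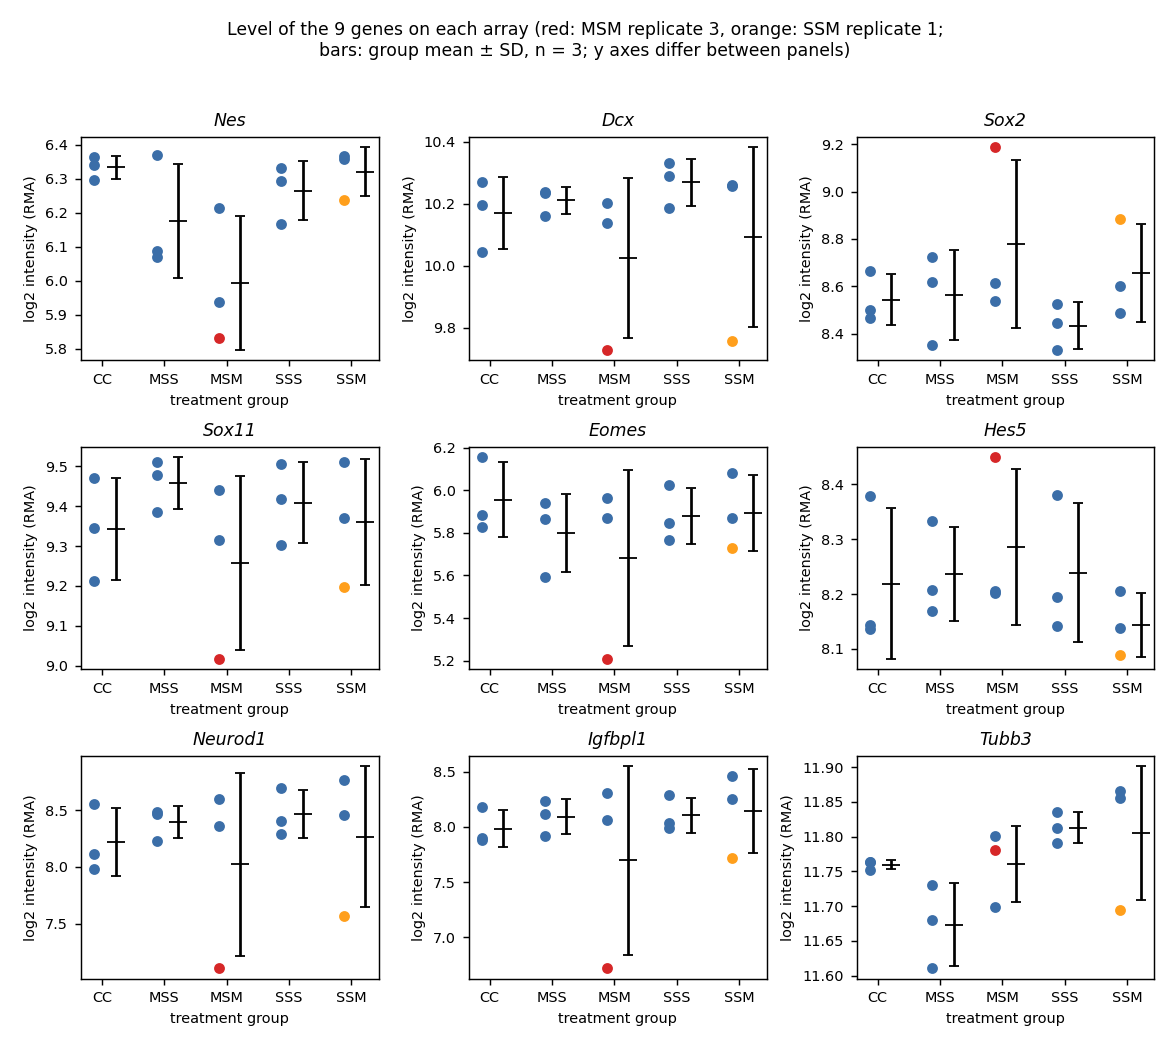
The log2 intensity of each of the 9 genes is plotted by treatment group, with 1 point per array (MSM 3 in red, SSM 1 in orange) and bars for the group mean ± SD (n = 3), on a separate y axis for each gene. MSM 3 lies apart from the other arrays for Igfbpl1 (6.72), Neurod1 (7.10), Eomes (5.21) and Sox2 (9.19), whereas the Tubb3 points span 0.26 in all.

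In mild stress with morphine against untreated pups, Nes was lower in all 3 MSM arrays than in all 3 CC arrays. The difference was -0.34 (SE 0.097, 95% interval -0.55 to -0.13), a fold of 0.790, and it did not pass after adjustment over all genes by limma (adjusted p = 0.9998). At an unadjusted p under 0.05, 1 of 9 members was lower, beside 1.18% of all genes, and 1 of 9 had MSM arrays all below the CC arrays, beside 3.83% of all genes. In the order of all genes by p in this comparison, Nes stood at place 19. Without MSM 3 the Nes difference was -0.26. The other members differed by -0.29 (SE 0.30) for Igfbpl1, -0.27 (SE 0.17) for Eomes, -0.19 (SE 0.33) for Neurod1, -0.15 (SE 0.13) for Dcx and -0.084 (SE 0.11) for Sox11. Sox2 differed by 0.24 (SE 0.15) and Hes5 by 0.067 (SE 0.089), while Tubb3 differed by 0.00064 (SE 0.059), whose sign turned under both other scalings tried. Without MSM 3 the sign turned for Dcx (0.0016), Sox11 (0.037), Hes5 (-0.016), Neurod1 (0.26), Igfbpl1 (0.20) and Tubb3 (-0.0097). With all arrays, 6 of 9 members were below 0, beside 50.7% of all genes, and the median of the 9 was -0.15 beside -0.0015 over all genes. Without MSM 3, 4 of 9 were below 0, beside 47.0% of all genes, and the median was 0.0016.

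In severe against mild stress with morphine in both, Nes stood higher in every SSM array than in every MSM array. The difference was 0.33 (SE 0.097, 95% interval 0.12 to 0.53), a 1.25-fold higher level, with an adjusted p of 0.199 by limma. At an unadjusted p under 0.05, 1 of 9 members was higher, beside 12.1% of all genes, and 1 of 9 did not overlap, beside 11.6%. Leaving out SSM 1 and MSM 3, it was 0.29 with an adjusted p of 0.286. In this comparison 7 of 9 members were above 0, beside 73.6% of all genes, but 3 of 9 without MSM 3, beside 70.9%.

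Averaged over saline and morphine, the severe stress groups had higher mean Nes and Tubb3 than the mild stress groups, at unadjusted p only. Nes differed by 0.21 (SE 0.068, 95% interval 0.061 to 0.35, adjusted p = 0.255 by limma) and Tubb3 by 0.092 (SE 0.041, interval 0.0035 to 0.18, adjusted p = 0.394). That is 2 of 9 members higher at an unadjusted p under 0.05, beside 9.28% of all genes. Nes alone was left under 0.05 when any of 11 of the 15 arrays was omitted, with quantile normalization, with the fit limited to the groups compared, and with the SS number of the sample titles as a random block. That number, whose meaning is not given, was 11 in all mild stress arrays and 8, 9 or 10 in the severe ones, with CC at 12, so it cannot be told apart from stress level. The intervals of the other 7 all spanned 0, with differences of 0.23 (SE 0.21) for Igfbpl1, 0.16 (SE 0.24) for Neurod1, 0.15 (SE 0.12) for Eomes, 0.064 (SE 0.094) for Dcx, 0.026 (SE 0.076) for Sox11, -0.070 (SE 0.063) for Hes5 and -0.13 (SE 0.11) for Sox2. In all, 7 of 9 members were above 0, beside 70.3% of all genes, with a median of 0.092 beside 0.035. Without MSM 3, 3 of 9 were above 0, beside 68.7%, and the median was -0.015. Without SSM 1 and MSM 3, Nes was at 0.19 (adjusted p = 0.278), Tubb3 at 0.12 (adjusted p = 0.246), and the same comparison had 13.8% of all genes past the unadjusted threshold.

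With saline in both, the Tubb3 level was higher in every SSS array than in every MSS array. The difference was 0.14 (SE 0.059, 95% interval 0.014 to 0.26), a 1.10-fold higher level, with an adjusted p of 0.9999 by limma. At an unadjusted p under 0.05, 1 of 9 members was higher, beside 1.28% of all genes, and 1 of 9 did not overlap in that direction, beside 6.49% of all genes. Against CC, Tubb3 was -0.086 (SE 0.059) in MSS, where 5.09% of all genes had their MSS arrays all below CC, and 0.053 (SE 0.059) in SSS, where 5.29% had theirs all above. Both comparisons share the CC arrays. Neither passed, with adjusted p of 1.00 and 0.9999 by limma.

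Morphine against saline, averaged over the stress levels, gave no member at an unadjusted p under 0.05, beside 7.64% of all genes. With quantile normalization 2 of 9 were lower, Dcx and Sox11, beside 3.26% of all genes. Leaving out 1 array at a time, Dcx, Sox2 and Sox11 were under 0.05 without MSM 1, and Dcx and Sox2 without SSM 2. Sox2 alone was so without MSS 3 or without MSM 2, and Dcx alone without SSM 3. No member was under 0.05 without any other single array. The shares over all genes with an array left out are not given, so it cannot be told whether these counts exceed them. The differences were 0.22 (SE 0.11, adjusted p = 0.649 by limma) for Sox2, -0.28 (SE 0.24) for Neurod1, -0.18 (SE 0.094) for Dcx, -0.18 (SE 0.21) for Igfbpl1 and -0.12 (SE 0.076) for Sox11. Nes (-0.063), Eomes (-0.053), Hes5 (-0.023) and Tubb3 (0.040) were closer to 0. Thus 7 of 9 members were below 0, beside 32.7% of all genes. Markers of other tissue also differed in this comparison, where 67.3% of all genes were above 0. All 9 measured myelin genes were above 0, with a median of 0.60 and mean levels of 6.28 to 7.73 in the morphine arrays against 6.09 to 6.79 in the saline arrays. The highest of these levels were those of SSM 1 (7.73) and MSM 3 (7.50). All 10 choroid plexus genes were also above 0, with a median of 0.71 and mean levels of 6.81 to 7.53 against 5.50 to 7.71. The low saline levels were those of MSS 1 (5.58), MSS 2 (5.55) and SSS 2 (5.50). The other saline arrays had 7.08 to 7.71, no lower than the morphine arrays as a whole. The part of these markers in the members' values was not tested. Without SSM 1 and MSM 3, which are both morphine arrays, 4 of 9 were below 0 and 5 of 9 above, where 78.2% of all genes were above 0. In that setting Sox2 was at 0.060, Neurod1 at 0.12, Igfbpl1 at 0.17, Dcx at -0.024, Sox11 at -0.024 and Eomes at 0.11. The sign of Neurod1, Igfbpl1 and Eomes thus turned without these arrays. The width of the intervals differed widely between members: with all arrays the 95% interval of Tubb3 ran from -0.049 to 0.13 and that of Neurod1 from -0.79 to 0.22.

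The difference that morphine made under severe stress minus that under mild stress was not past the threshold for any member, with the lowest adjusted p at 0.959 by limma, and 0 of 9 had an unadjusted p under 0.05, beside 3.65% of all genes. It was 0.24 (SE 0.14) for Nes, 0.43 (SE 0.42) for Igfbpl1 and -0.094 (SE 0.083) for Tubb3. Its 95% interval for Igfbpl1 ran from -0.47 to 1.34, so this design bounds that difference poorly. In severe stress with morphine against CC, no member had an unadjusted p under 0.05 with all arrays, beside 9.01% of all genes. Without SSM 1 and MSM 3, Neurod1 was at 0.40 (SE 0.16, adjusted p = 0.292) and Igfbpl1 at 0.37 (SE 0.12, adjusted p = 0.267), which made 2 of 9 members at an unadjusted p under 0.05, beside 15.5% of all genes.

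**Figure D2:**
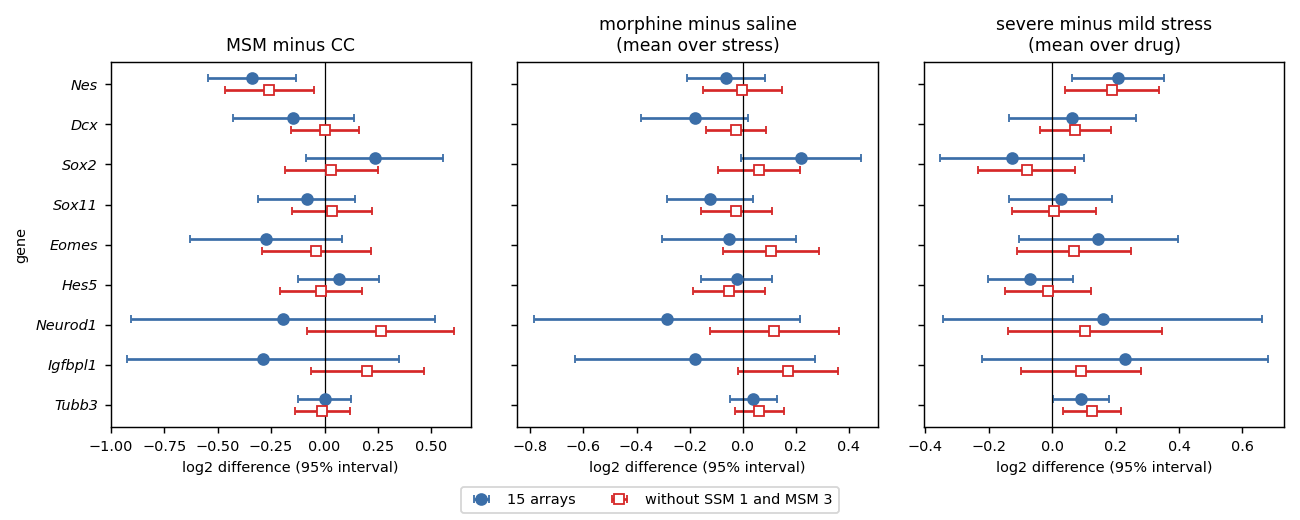
Log2 differences of the 9 genes with 95% intervals are plotted for MSM minus CC, morphine minus saline and severe minus mild stress, with filled circles for all 15 arrays and open squares without SSM 1 and MSM 3. Nes lies below 0 in the first panel and above 0 in the third in both settings, while Neurod1 in the second panel moves from -0.28 to 0.12.

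Several members deviated together in the same arrays. MSM 3 deviated from the members' own means by a median of -0.39, whereas the median over all genes there was -0.020. Among the SS numbers, 8 is the one value shared by severe stress arrays of both drugs, SSS 3 and SSM 1. Between these, 8 of 9 members were lower in SSM 1, beside 49.8% of all genes, with Neurod1 at -0.84 and Dcx at -0.43, and Sox2 was higher by 0.44. With 1 array on each side this has no test.

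**Figure D3:**
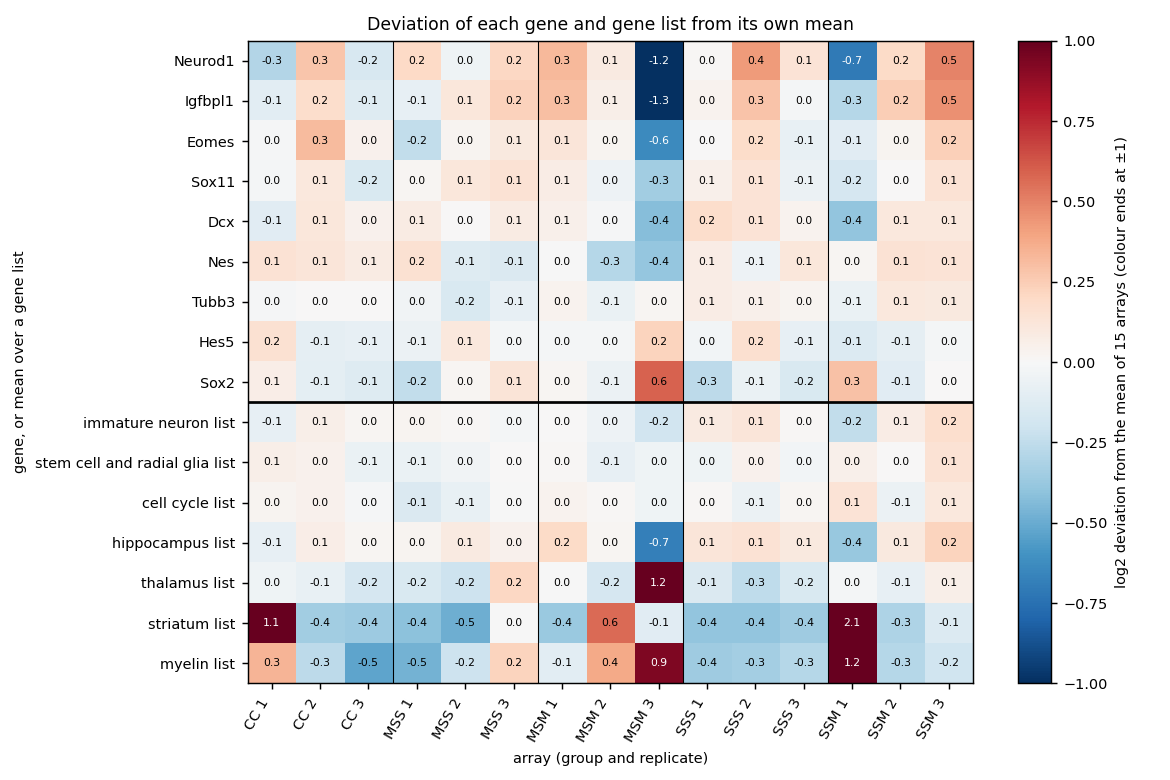
Each gene's deviation from its own mean over 15 arrays, in log2 units, is shown for each array as a colour, and the mean deviations of 7 gene lists stand below the line. Among the 9 genes the MSM 3 column holds the strongest deviations, negative for Igfbpl1 and Neurod1 and positive for Sox2, and SSM 1 is low for Neurod1 and Dcx, while the thalamus list is high in MSM 3 and the striatum list in SSM 1 and CC 1.

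Over the 36 pairs of members, Pearson's r across the 15 arrays had a median of 0.28 and ran from -0.86 to 0.93, with 22 pairs above 0. By a two-sided permutation test of 100000 resamples with Benjamini-Hochberg adjustment over the 36 pairs, 13 pairs passed by r and 10 by Spearman's rho. How many pairs of other genes would pass the same test was not counted. These counts therefore do not set the members apart from other genes. Neurod1 and Igfbpl1 had the highest value, with r = 0.93 (permutation p = 1e-05, the smallest these resamples can give, adjusted 3.6e-04) and rho = 0.89 (adjusted permutation p = 7.2e-04). They still had r = 0.82 without the 2 arrays farthest from the median of Neurod1. Igfbpl1 also followed Eomes (r = 0.91, rho = 0.80) and Sox11 (r = 0.89, rho = 0.84). Without MSM 3 and SSM 1, its r was 0.70 with Eomes and 0.76 with Sox11. Without MSM 3 and CC 2, the arrays farthest from the median of Eomes, its r with Eomes was 0.80. Dcx and Neurod1 had r = 0.91 and rho = 0.74, with r = 0.63 once MSM 3 and SSM 1 were left out. These commitment and immature neuron genes thus varied together over the arrays, less closely without MSM 3 and SSM 1.

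Sox2 ran the other way over all 15 arrays, and its r with Dcx, Neurod1 and Igfbpl1 moved toward or past 0 without MSM 3 and SSM 1. With Dcx it had r = -0.86 and rho = -0.63 (adjusted permutation p 0.0014 and 0.049), but r = -0.48 without those arrays. With Neurod1 it had r = -0.76 and rho = -0.29, but r = 0.025 without them. Sox2 and Igfbpl1 went from r = -0.69 to 0.42. None of the 8 pairs with Tubb3 passed. Its highest r was 0.42, with Nes, and 0.62 without MSM 3 and SSM 1, and with Dcx it had r = 0.31 and rho = 0.55. In all, 2 pairs passed when MSM 3 and SSM 1 were left out, and 15 passed when group means were removed from all 15 arrays. The latter test kept MSM 3 and SSM 1 and permuted the 15 remainders as independent values. Removing 5 group means leaves 10 degrees of freedom, so its p-values tend to be too small. That count cannot be compared with the count before the removal.

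**Figure D4:**
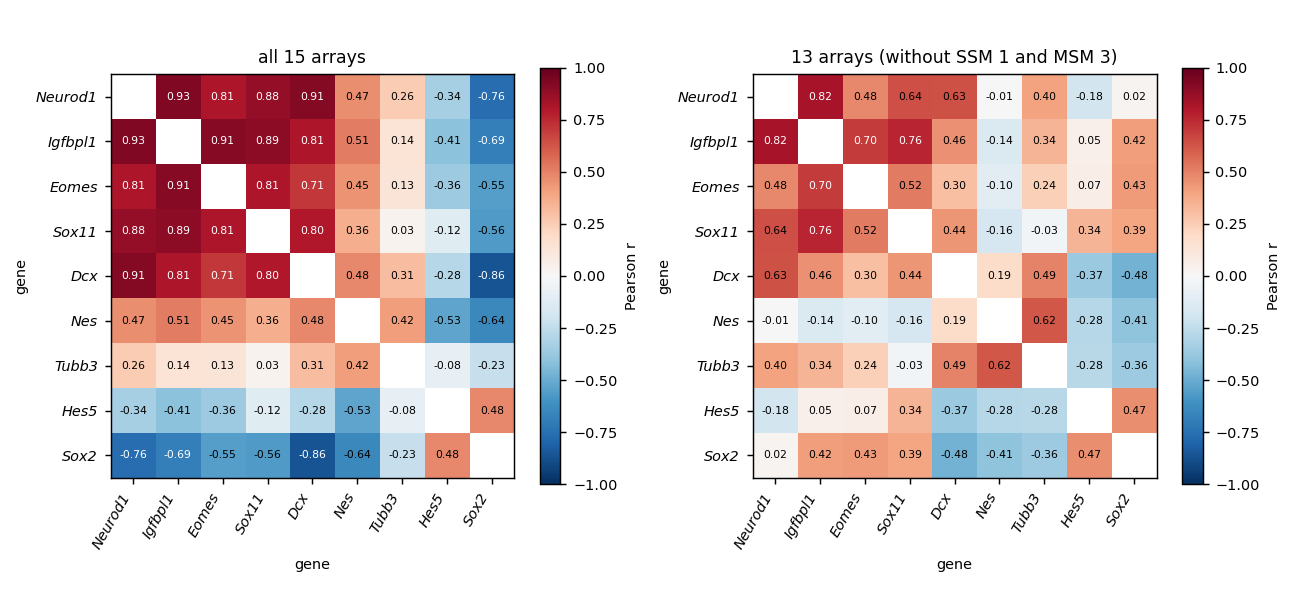
Pearson's r of each pair of the 9 genes is shown as a colour, over all 15 arrays and without SSM 1 and MSM 3. Neurod1 and Igfbpl1 stay high in both settings (0.93 and 0.82), while Sox2 and Neurod1 go from -0.76 to 0.025.

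The promoters of Neurod1 and Sox11, which varied together over the arrays (r = 0.88), and of Sox2 and Hes5, the stem cell factor and the Notch target, are shown for comparison. They are the 250 bases before the RefSeq start of each gene (assembly GRCm38.p6, 5′ to 3′ on the gene's strand). Capitals mark matches, on either strand, to the E-box CANNTG bound by factors such as Neurod1, to TGGGAA, bound by the Notch effector RBPJ, and to ACAAAG or ACAATG, bound by SOX factors.
Neurod1, chr2:79456637-79456886, minus strand: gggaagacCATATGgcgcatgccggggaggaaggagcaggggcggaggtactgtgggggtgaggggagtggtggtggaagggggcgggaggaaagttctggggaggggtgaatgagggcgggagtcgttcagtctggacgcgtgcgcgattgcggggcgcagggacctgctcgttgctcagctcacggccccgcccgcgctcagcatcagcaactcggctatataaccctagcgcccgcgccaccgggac
Sox11, chr12:27342719-27342968, minus strand: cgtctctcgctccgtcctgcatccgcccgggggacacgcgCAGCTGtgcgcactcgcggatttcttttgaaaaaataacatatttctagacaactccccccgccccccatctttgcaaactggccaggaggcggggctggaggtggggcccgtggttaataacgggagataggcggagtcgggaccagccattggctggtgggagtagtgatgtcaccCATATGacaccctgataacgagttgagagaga
Sox2, chr3:34649745-34649994, plus strand: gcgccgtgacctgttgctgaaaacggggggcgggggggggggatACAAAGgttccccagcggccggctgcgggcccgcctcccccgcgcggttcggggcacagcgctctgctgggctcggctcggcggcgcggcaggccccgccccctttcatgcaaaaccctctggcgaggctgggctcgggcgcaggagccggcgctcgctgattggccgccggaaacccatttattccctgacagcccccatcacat
Hes5, chr4:154960673-154960922, plus strand: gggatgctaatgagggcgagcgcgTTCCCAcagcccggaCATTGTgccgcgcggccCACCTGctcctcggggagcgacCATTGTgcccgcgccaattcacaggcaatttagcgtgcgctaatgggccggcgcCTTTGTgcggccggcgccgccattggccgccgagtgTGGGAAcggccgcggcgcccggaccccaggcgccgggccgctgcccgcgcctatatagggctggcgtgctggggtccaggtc
The Hes5 window held 2 RBPJ matches, 3 SOX matches and 1 E-box. The Sox11 window had 2 E-boxes, that of Neurod1 1 E-box, and that of Sox2 1 SOX match. Over all 32851 RefSeq promoters of this length, 66.2% held an E-box, 21.6% an RBPJ match and 25.2% a SOX match, so an E-box in these windows was the common case. Of the 9 members, 8 had a promoter entry, and Igfbpl1 had none. Tubb3 had 2 SOX matches, and the windows of Nes, Dcx and Eomes had none of these letters. A match is a description of letters and not a measured site.

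Genes whose profile was nearest to each member over the 15 arrays are given by Pearson's r, as a description. For Igfbpl1 they were Sh3rf1, Olfml2b and Sema3c, each at 0.97, and for Neurod1 Trim2 (0.97), Gpr37 (0.96) and Nsmf (0.96). Dcx was nearest to Gnaq (0.97), Gpr161 (0.97) and Nfix (0.96), and Sox11 to Stard5 (0.91), Trim2 (0.91) and Nptx2 (0.90). Trim2 thus stood among the nearest 3 for both Sox11 and Neurod1. For Eomes they were Nek6 (0.92), Cbfb (0.91) and Mta2 (0.91), and for Sox2 Sfxn5 (0.95), Bmp4 (0.94) and Tmem132e (0.93). Hes5 was nearest to Ocstamp (0.93), Tbx6 (0.87) and Col11a2 (0.85), Nes to Ldah, Rnf20 and Mapk1ip1l (each 0.88 after rounding), and Tubb3 to Csdc2 (0.90), Gdap1l1 (0.89) and Clec4n (0.87). These values rest on the same 15 arrays. Without MSM 3 they ran from 0.76 for Eomes and Cbfb to 0.97 for Dcx and Nfix. Without both SSM 1 and MSM 3 they ran from 0.66 for Sox2 and Tmem132e to 0.91 for Tubb3 and Csdc2.

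Other genes of the same steps of neurogenesis were read from lists and showed no gene past the threshold by limma in the averaged morphine and severity comparisons. For severity, the stem cell and radial glia list had 1 of 13 measured genes higher at an unadjusted p under 0.05, beside 9.28% of all genes: Nr2e1 (Tlx), a nuclear receptor that keeps adult neural stem cells, at 0.26 (SE 0.10, adjusted p = 0.333). In this list 12 of 13 were above 0, beside 70.3% of all genes. None of 10 neuronal commitment genes had an unadjusted p under 0.05, and 8 were above 0, among them Neurog1 at 0.13 (SE 0.065). Without SSM 1 and MSM 3, 3 of 10 were higher, beside 11.4% of all genes, with 6 above 0. The immature neuron list had 2 of 22 higher, Draxin, an axon guidance ligand, at 0.31 (SE 0.087, adjusted p = 0.174) and Tmsb10, an actin-binding thymosin, at 0.092 (SE 0.041, adjusted p = 0.387). Without those arrays 7 of 22 were higher, and with median centring 4 of 22, beside 11.4% and 21.7% of all genes. All 8 measured tubulins were above 0 for severity, beside 70.3% of all genes. They were so with quantile normalization (65.7% of all genes) and median centring (82.0%) too. Tubg1 was at 0.11 (SE 0.041) and Tuba4a at 0.15 (SE 0.062). These were the 2 of 8 higher at an unadjusted p under 0.05, beside 9.28% of all genes. Without SSM 1 and MSM 3, 5 of 8 were higher, beside 11.4%. With median centring 4 of 8 were higher, beside 21.7%, and with quantile normalization 1 of 8, beside 9.15%. Of the 8 tubulins, 6 were at their highest in SSM 3, the highest array for 48.8% of all genes. The Notch list had 0 of 15 at an unadjusted p under 0.05, with 8 above 0, and its genes with the smallest p were Notch3 at -0.14 (SE 0.073) and Lfng at 0.10 (SE 0.056).

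For morphine, 0 of 13 stem cell genes, 0 of 10 commitment genes and 0 of 22 immature neuron genes had an unadjusted p under 0.05 on the deposited scale. With quantile normalization 2 of 10 commitment and 2 of 22 immature neuron genes were lower, beside 3.26% of all genes, and with median centring 1 and 3, beside 1.83%. On the deposited scale their medians were 0.026, -0.015 and -0.022, beside 0.027 over all genes. Neurod2, a sister factor of Neurod1, was at -0.23 (SE 0.11) and Insm1, a factor of delaminating progenitors, at -0.16 (SE 0.078), both with an adjusted p of 0.649 by limma. The Notch list had 2 of 15 higher at an unadjusted p under 0.05, beside 7.04% of all genes, its effector Hey2 at 0.20 (SE 0.079) and its ligand Dll3 at 0.16 (SE 0.072). With SSM 1 and MSM 3 left out, the Notch list also had 2 of 15 higher, beside 7.31% of all genes. Without SSM 1 and MSM 3, the immature neuron list had 12 of 22 above 0, beside 78.2% of all genes. Its median there was 0.0019, beside 0.045 over all genes. With all arrays it had 8 of 22 above 0, beside 67.3%. In SSM 1, which had a summed level below the rest of its group, 10 of the 22 immature neuron genes were at their lowest of the 15 arrays, beside 2185 of all 19938 genes, and 7 of 22 were at their lowest in MSM 3, beside 16.1%.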

How the data were processed

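Log2 intensities of 35557 probe sets were used as the authors deposited them in a table of the whole series, 1 column per array. RMA is named in the submitters' processing notes; the sources used here name no software, version or genome build for it. RMA corrects background, scales arrays to each other and summarises probes, so small fold changes may be compressed. The number of arrays limits the precision. Probe sets with 1 symbol in the platform annotation (21789 of 23410 annotated) gave 19938 genes, the brightest probe set for each. No dim genes were removed.

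limma 3.58.1 in R 4.3.3 fitted a mean per group on all 15 arrays (10 residual degrees of freedom, 4.61 prior), with 12 contrasts and an F-test, two-sided, Benjamini-Hochberg over all genes. It was tested on simulated data for MSM against CC, with 200 of 19938 genes changed, in equal parts by 1.25-, 1.5-, 2- and 3-fold. It recovered 44.8% of genes changed 1.25-fold and 91.2% of those changed 1.5-fold, with 8 false calls per simulation. The noise was normal and drawn independently for each gene and array, with no array standing apart as MSM 3 did. These rates may therefore not hold for the real arrays, where 0% of all genes passed in this comparison. The main test of pairs of members used 100000 permutations, and the counts of pairs under other settings used fewer. All 9 members were named, with the 3 genes nearest to each by r and the 2 genes of each list with the smallest p in the averaged comparisons; values for the remaining genes of a list are given as counts. The members and lists were chosen with earlier results of these data known. Alternatives covered scaling, a filter on dim genes, the choice of probe set, the variance model, the arrays fitted and blocks.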

Additional observations from a re-analysis of the deposited data

Results flagged for a closer look

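For Tubb3, every MSS array lay below and every SSS array above every CC array, beside 5.09% of all genes with MSS arrays all below CC and 5.29% with SSS arrays all above. Both comparisons share the 3 CC arrays, and neither difference from CC passed (adjusted p = 1.00 and 0.9999 by limma). The difference between them, SSS minus MSS, was 0.14 on the log2 scale (SE 0.059) and did not pass in limma with adjustment over all genes (adjusted p = 0.9999).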

How the results depend on the processing

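Under each of the 27 alternative settings tried, 0 of 9 members passed in every comparison that could be fitted. Of 753 individual differences, 722 kept their sign, but many of these could not turn. The variance model, the filter on dim genes and a fit limited to the groups compared leave a member's difference unchanged. So do the choice of probe set, with 1 per member, and the omission of an array outside the comparison. The pairs of members that passed by r fell from 13 to 3 without the 2 arrays farthest from the median of 1 gene of each pair. They fell to 2 without SSM 1 and MSM 3, an alternative chosen after seeing the data. Quantile normalization turned Tubb3 in MSM against CC to -0.0037 and Sox11 in severe against mild stress to -0.017, and median centring turned that Tubb3 difference to -0.031. Without SSM 1 and MSM 3, MSM against CC gave 0.0016 for Dcx, 0.037 for Sox11, -0.016 for Hes5, 0.26 for Neurod1, 0.20 for Igfbpl1 and -0.0097 for Tubb3, and morphine against saline gave 0.11 for Eomes, 0.12 for Neurod1 and 0.17 for Igfbpl1. Without MSS 1, MSS 2 and SSS 2, where choroid plexus markers were low, Hes5 in morphine against saline was 0.028 and Sox11 in severe against mild stress -0.025. The cause of these turns was not tested, and none of these differences passed with all arrays.

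Leaving out 1 array at a time, MSM against CC ranged from -0.24 to 0.0016 for Dcx, -0.18 to 0.037 for Sox11, -0.016 to 0.15 for Hes5, -0.48 to 0.26 for Neurod1, -0.59 to 0.20 for Igfbpl1 and -0.020 to 0.031 for Tubb3. Morphine against saline ranged from -0.12 to 0.066 for Eomes, -0.064 to 0.013 for Hes5 and -0.33 to 0.066 for Igfbpl1. Severe against mild stress ranged from -0.010 to 0.15 for Dcx, -0.034 to 0.072 for Sox11, -0.071 to 0.33 for Neurod1 and -0.015 to 0.38 for Igfbpl1.

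CC and MSM titles share the H numbers 1 to 3, whose meaning is not given, and the main fit did not pair samples by them. Deviations of same-numbered arrays from their group means correlated at -0.39, -0.069 and -0.16. With 3 arrays per group and no values for differently numbered arrays, these cannot decide whether the numbers pair the samples. With the H number as a replicate block, 0 members passed in MSM against CC, and Nes was at -0.34. With the SS number, which is nested in the stress level, as a random block the estimated correlation was 0.065. The counts of members and list genes at an unadjusted p under other settings were added after seeing the data. In the simulation of MSM against CC, whose noise held no array that stood apart, 44.8% of genes changed 1.25-fold were recovered.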

Other observations

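Cell cycle genes, which dividing progenitors express, gave no gene past the threshold by limma in the averaged comparisons. For severe against mild stress, 3 of 19 measured genes were higher at an unadjusted p under 0.05, beside 9.28% of all genes, and the smallest p were those of the replication helicase subunits Mcm2, at 0.20 (SE 0.051, adjusted p = 0.146), and Mcm6, at 0.20 (SE 0.073, adjusted p = 0.311). Mcm2 had means of 7.12 ± 0.13 in SSM, 7.02 ± 0.10 in CC, 7.00 ± 0.026 in SSS, 6.90 ± 0.052 in MSS and 6.82 ± 0.070 in MSM (SD, n = 3). For morphine against saline, 3 of 19 were higher at an unadjusted p under 0.05, beside 7.04% of all genes, against 1 of 19 with quantile normalization (3.57% of all genes) and 2 of 19 with median centring (3.91%), and 16 of 19 were above 0, beside 67.3%. With SSM 1 and MSM 3 left out, 3 of 19 were higher, beside 7.31% of all genes, and 15 were above 0, beside 78.2%. The mitotic kinase gene Aurkb was at 0.18 (SE 0.063) and Pcna, the replication clamp, at 0.11 (SE 0.043), both with an adjusted p of 0.649 with all arrays.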
